A study of Mus musculus with 22 samples.

Results

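The data describe 30 genes of cholesterol synthesis, uptake, storage and efflux in mpkCCD cells, an immortalised mouse line (mpkCCDc11, clone 38) derived from the cortical collecting duct. The genes were taken by symbol from the deposited expression table, in which each of the 30 had exactly 1 line among 54514 gene entries. They comprised 7 enzymes of the mevalonate pathway, 11 enzymes that form squalene and turn it into cholesterol, 5 regulators of sterol-responsive transcription, 2 transport proteins, 1 esterifying enzyme and 4 genes of the liver X receptor (LXR) and efflux arm. The study covered 22 RNA-seq libraries in 10 groups. Wild-type (WT) cells, which carry no reporter, were unsorted and received either no dDAVP (3 libraries) or dDAVP (3 libraries), a synthetic vasopressin analogue that acts on the V2 receptor. Clones C1, C11, C43 and C50, each a single clone carrying a GFP reporter for aquaporin-2 (Aqp2), all received dDAVP and were separated into GFP-negative and GFP-positive cells, with 2 libraries per fraction and clone. All cells had been grown on permeable supports and then held in serum-free medium with dexamethasone, per the labels' protocols.

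Cells make cholesterol from acetyl-CoA through mevalonate and squalene. When membrane sterol is low, the escort protein Scap carries the membrane-bound SREBP transcription factors, encoded by Srebf1 and Srebf2, to the Golgi for cleavage, and the cleaved factors raise transcription of the enzymes. Insig proteins hold Scap back when sterol is plentiful. Surplus cholesterol is esterified for storage by Soat1, while oxysterols activate LXR, which induces the exporters Abca1 and Abcg1 and the ubiquitin ligase Mylip that removes lipoprotein receptors. In collecting duct cells cholesterol is a component of the membranes to which aquaporin-2 is delivered.

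The windows upstream of the transcription start were read for those members that the RefSeq promoter table holds, 24 of the 30, on build GRCm38.p6. The 6 below are the 150 bases that end 1 base before the annotated start, shown because they belong to enzymes described below and to Soat1, the esterifying enzyme. Capitals mark CCAAT on either strand (written ATTGG on the reverse), the box bound by NF-Y, and in Hmgcs1 also the single sterol response element core found, TCACNCCAC.
Hmgcs1, chr13:119690201-119690350, plus strand: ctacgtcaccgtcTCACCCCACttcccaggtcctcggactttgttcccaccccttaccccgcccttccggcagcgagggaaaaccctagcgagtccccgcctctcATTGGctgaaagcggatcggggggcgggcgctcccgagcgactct
Mvk, chr5:114444119-114444268, plus strand: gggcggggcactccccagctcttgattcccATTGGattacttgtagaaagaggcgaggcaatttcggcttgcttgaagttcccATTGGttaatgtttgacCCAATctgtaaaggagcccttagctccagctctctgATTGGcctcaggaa
Mvd, chr8:122443423-122443572, minus strand: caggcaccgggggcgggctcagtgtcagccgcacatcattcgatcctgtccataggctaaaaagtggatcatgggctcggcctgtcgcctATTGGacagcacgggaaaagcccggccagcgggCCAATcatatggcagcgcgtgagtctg
Cyp51, chr5:4104698-4104847, minus strand: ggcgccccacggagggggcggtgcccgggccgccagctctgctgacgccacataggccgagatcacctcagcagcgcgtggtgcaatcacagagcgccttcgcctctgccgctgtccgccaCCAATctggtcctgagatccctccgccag
Tm7sf2, chr19:6067851-6068000, minus strand: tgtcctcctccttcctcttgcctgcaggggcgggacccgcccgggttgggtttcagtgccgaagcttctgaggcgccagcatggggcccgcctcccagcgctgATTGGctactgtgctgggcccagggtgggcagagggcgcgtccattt
Soat1, chr1:156474329-156474478, minus strand: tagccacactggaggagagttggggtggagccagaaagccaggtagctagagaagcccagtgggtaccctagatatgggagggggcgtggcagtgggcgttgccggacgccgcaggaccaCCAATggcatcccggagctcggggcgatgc

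In the full windows of 300 bases (250 before the start and 50 after), searched on both strands, CCAAT occurred in 20 of 24 members (83.3%) against 41.1% of all genes in the table. The Sp1 box GGGCGG occurred in 22 of 24 members (91.7%) against 38.2% of genes. TCACNCCAC occurred in 1 of 24 members, Hmgcs1, against 1.44% of genes, and the LXR-type direct repeat (DR4) in 0 of 24 against 0.0222% of genes. These are letter matches in 1 short window, and genes with several windows have more chances of a match. Per window, CCAAT occurred in 65.6% of 32 member windows against 37.4% of all windows, and GGGCGG in 81.25% against 35.7%. The genes in the table were not limited to those expressed in these cells. The CCAAT box was present upstream of Mvd and Cyp51, which fell in GFP-positive cells, and also upstream of Soat1, which rose.

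Library quality and identity were checked across the series. Between 12293 and 14341 genes per library reached 1 TPM (the authors' expression value, a level per transcript length scaled to the same total in each library), and TPM keep no sequencing depth. Aqp2 was at 69.1 ± 5.43 TPM without dDAVP and 2868 ± 139 TPM with it (SD, n = 3 each). In the clones the GFP transcript was at 5.31 to 17.6 TPM in the 8 GFP-negative libraries and 1065 to 1567 TPM in the 8 GFP-positive libraries, as labelled, and Aqp2 at 66.5 to 1680 and 2008 to 7254 TPM. Of 10 principal-cell markers 9 reached 1 TPM in at least 1 library, and of 7 intercalated-cell markers 1 did. The summed markers of fibroblasts and of endothelium stayed at or below 1.58 and 1.57 TPM in every library, while those of leukocytes ranged from 3.20 to 12.97 TPM, mostly from Cd68, and those of the proximal tubule from 0.94 to 16.2 TPM, mostly from Lrp2. The number of entries above 0 ranged from 17177 to 31292 and split the libraries into 10 with fewer and 12 with more, across groups. GFP-negative replicate 1 of C50 stood apart with 8.02% of TPM from ribosomal-protein genes, against 3.77% to 5.99% in the other libraries, so counts of called members over the clones are given with and without it. The labels do not state that replicates came from separate cultures, so p-values measure only the spread between these samples.

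Most of the module was well above 1 TPM, apart from Abca1 and Abcg1, which stayed near 0, and Npc1, with a median of 2.42 TPM. Of the 30 genes 28 had a mean of at least 1 TPM and could be tested. Fdps, the farnesyl diphosphate synthase that feeds sterol and isoprenoid branches, had the highest median over the 22 libraries (266 TPM, range 140 to 476). Soat1 followed with 141 TPM (37.1 to 270), then the sterol C4-methyl oxidase Msmo1 with 130 TPM (101 to 215) and Srebf2 with 120 TPM (54.2 to 146). The ranges of these genes overlapped, so their order differs between libraries.

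The efflux arm was nearly silent at its effector end. Abca1 did not exceed 0.14 TPM in any library and Abcg1 did not exceed 0.38 TPM, with 11 and 9 of the 22 libraries listed at 0. Nr1h2, which encodes the LXR beta receptor, was in contrast at 87.0 to 125 TPM, and varied least between group means of the 28 tested genes, by 1.26-fold. The gene for the other LXR receptor, Nr1h3, did not exceed 0.42 TPM. Among tested members the largest ratio between group means was that of Soat1, 6.43-fold, followed by Mvd (3.22-fold), Tm7sf2 (3.22-fold) and Fdps (3.11-fold).

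**Figure D1:**
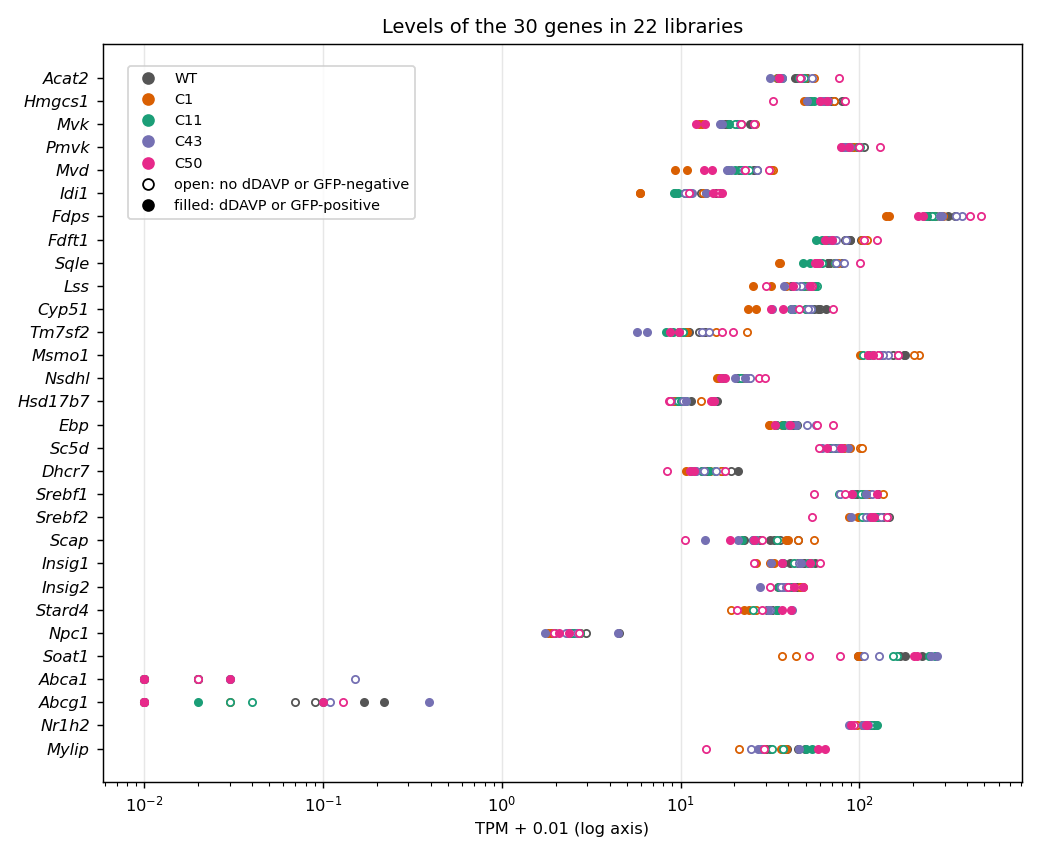
Levels of the 30 genes in each of the 22 libraries, as TPM + 0.01 on a log axis, coloured by WT or clone. Open points are libraries without dDAVP (WT) or GFP-negative fractions, and filled points are dDAVP-treated WT cells or GFP-positive fractions. Abca1 and Abcg1 lie below 1 TPM in every library, while Fdps, Soat1 and Msmo1 reach the highest values.

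The first comparison asked how WT cells responded to dDAVP. Soat1, the endoplasmic-reticulum enzyme that esterifies cholesterol for storage in droplets, rose 1.91-fold. It was at 101, 97.9 and 101 TPM in the 3 libraries without dDAVP and at 179, 223 and 169 TPM in the 3 with dDAVP. Every dDAVP library was above every untreated library, with means of 99.9 ± 1.80 and 191 ± 28.7 TPM (SD, n = 3 each). The difference of mean log2(TPM + 1), the scale of all differences below and one that understates changes of low genes, was 0.92 with a standard error of 0.11 (limma, Benjamini-Hochberg adjusted p = 0.0051). Soat1 was the 1 member of 28 that passed an adjusted p under 0.05, where 8.88% of all genes tested passed.

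No enzyme of the synthesis pathway passed in this comparison (limma, 4 of 18 at an unadjusted p under 0.05). Of the 18 enzymes 12 had a positive and 6 a negative difference, with a median of 0.07, while all genes tested had a median of -0.16. Fdps was at 241, 245 and 266 TPM without dDAVP and at 344, 284 and 314 TPM with it. Msmo1 was at 154, 131 and 135 TPM without and 177, 164 and 179 TPM with dDAVP, and Mvd, mevalonate diphosphate decarboxylase, at 22.1, 21.3 and 21.7 TPM against 25.6, 25.9 and 26.7 TPM. In all 3 of these genes the groups did not overlap, and their differences of 0.32, 0.31 and 0.25 had adjusted p-values of 0.063, 0.062 and 0.085 (limma). Non-overlap alone was common: 6 members were higher without overlap, against 7.12% of all genes, and 5 were lower, against 28.7%.

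The 5 regulators did not pass either (limma, 2 at an unadjusted p under 0.05). Scap was at 45.4, 35.8 and 33.4 TPM without dDAVP and at 22.7, 31.5 and 27.7 TPM with it, a difference of -0.47 (limma adjusted p = 0.095). The untreated libraries all lay above the dDAVP libraries. Srebf2 had a difference of -0.21 and Srebf1 of -0.04. Mylip was at 49.4, 45.4 and 39.2 TPM without dDAVP and 29.8, 37.4 and 31.7 TPM with it, again without overlap (difference -0.43, limma adjusted p = 0.070). Stard4, a carrier that moves sterol between membranes, differed by 0.04 and Npc1, which exports cholesterol from lysosomes, by -0.21.

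The dDAVP count moved with the scaling. The median difference of all genes was -0.16 on the deposited TPM scale and -0.00036, -0.022 and -0.0086 after median-ratio scaling, quantile normalization and a correction for transcript length and GC content. Of all called genes 26.7% were higher on the TPM scale and 63.8%, 54.1% and 59.8% under these alternatives. The members called were then Soat1, Msmo1 and Mvd with median-ratio scaling, Soat1 and Mvd with quantile normalization, and Soat1, Fdps, Hsd17b7, Msmo1, Mvd and Sc5d after the length and GC correction, all higher. The share of all genes called was 6.67%, 6.003% and 8.74% in the same order. With the number of genes detected as a covariate, Soat1 and Fdps were called higher and Scap, Srebf2 and Mylip lower. In that fit 19.96% of all genes were called, and 19.8% of the called genes were higher. Proliferation genes moved in the same cells, with 7 of 10 lower (70.0%, against 8.88% of all genes) and their summed level at 2132 to 2157 TPM without dDAVP and 1430 to 1672 TPM with it; their part in these differences was not tested.

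The second comparison asked how GFP-positive cells, which had activated the Aqp2 reporter, differed from GFP-negative cells of the same clones. Of the 18 enzymes of cholesterol synthesis 11 fell, and Soat1 rose. Over the 4 clones 14 of 28 members passed, 11 lower and 3 higher, where 35.3% of all genes tested passed (23.2% lower and 12.1% higher). Of all genes called, 34.2% were higher, against 51.1% with median-ratio scaling, 50.5% with quantile normalization and 51.9% with a correction for length and GC content. The 11 that fell were all among the 18 synthesis enzymes, of which 17 had a negative difference, with a median of -0.39 against -0.06 for all genes. In bulk RNA, fewer cells that express a gene and less RNA per cell cannot be told apart.

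Among the mevalonate enzymes 4 of 7 fell. Mvd had the largest difference, -0.77 (SE 0.16, limma adjusted p = 0.0016). Its 8 GFP-negative libraries had a lowest, median and highest level of 21.7, 25.4 and 32.7 TPM, and the 8 GFP-positive libraries of 9.23, 16.5 and 20.1 TPM. No GFP-positive library reached the lowest GFP-negative one. Fdps fell by 0.62 (SE 0.11, limma adjusted p = 0.00053), with 256, 319 and 476 TPM in GFP-negative and 140, 228 and 289 TPM in GFP-positive libraries, where the 2 fractions overlapped across clones but not within any clone. Acat2, the cytosolic thiolase of the first step, and Mvk, mevalonate kinase, each fell by 0.57 (SE 0.093 and 0.0995, limma adjusted p = 0.00028 and 0.00047). The remaining 3, Hmgcs1, Pmvk and Idi1, had differences of -0.13, -0.02 and -0.18.

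Among the 11 later enzymes 7 fell. Tm7sf2, a sterol reductase, fell by 0.75 (SE 0.12, limma adjusted p = 0.00024), from 9.81, 15.1 and 23.5 TPM (lowest, median, highest) in GFP-negative to 5.71, 8.87 and 10.9 TPM in GFP-positive libraries. Its fractions were separated within each of the 4 clones. Cyp51, lanosterol demethylase, fell by 0.63 (SE 0.11, limma adjusted p = 0.00051) and the squalene epoxidase Sqle by 0.55 (SE 0.12, limma adjusted p = 0.0021). Fdft1, squalene synthase, fell by 0.45, Nsdhl, a sterol dehydrogenase, by 0.41, the isomerase Ebp by 0.36 and Msmo1 by 0.34. The 4 that did not pass were Lss (-0.12), Sc5d (-0.03), Dhcr7 (-0.21) and Hsd17b7, which had a positive difference of 0.26. Of the 28 members, 8 were lower in GFP-positive cells without overlap in every clone (Acat2, Mvk, Mvd, Fdps, Fdft1, Cyp51, Tm7sf2 and Nsdhl), where 12.2% of all genes were.

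Soat1 was the 1 member higher without overlap in every clone, where 6.72% of all genes were. It rose by 1.20 over the 4 clones (SE 0.12, limma adjusted p = 3.87e-06). In C1 its level went from 37.1 and 44.0 TPM in GFP-negative to 97.9 and 99.6 TPM in GFP-positive libraries. C11 had 162 and 154 TPM against 266 and 246 TPM, and C43 had 106 and 129 TPM against 270 and 251 TPM. C50 had 51.9 and 78.2 TPM against 209 and 201 TPM. The GFP-positive level of C1 thus lay below the GFP-negative level of C11 while both clones showed a rise. Soat1 passed within each clone, by 1.27 (C1), 0.69 (C11), 1.15 (C43) and 1.67 (C50) (limma adjusted p = 0.00084, 0.028, 0.00095 and 5.32e-05). The C11 call was lost without any 1 of the 4 C11 libraries, with the replicate block and with a filter of any TPM above 0. The test of whether these rises differed between clones did not pass (limma F-test, adjusted p = 0.24).

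**Figure D2:**
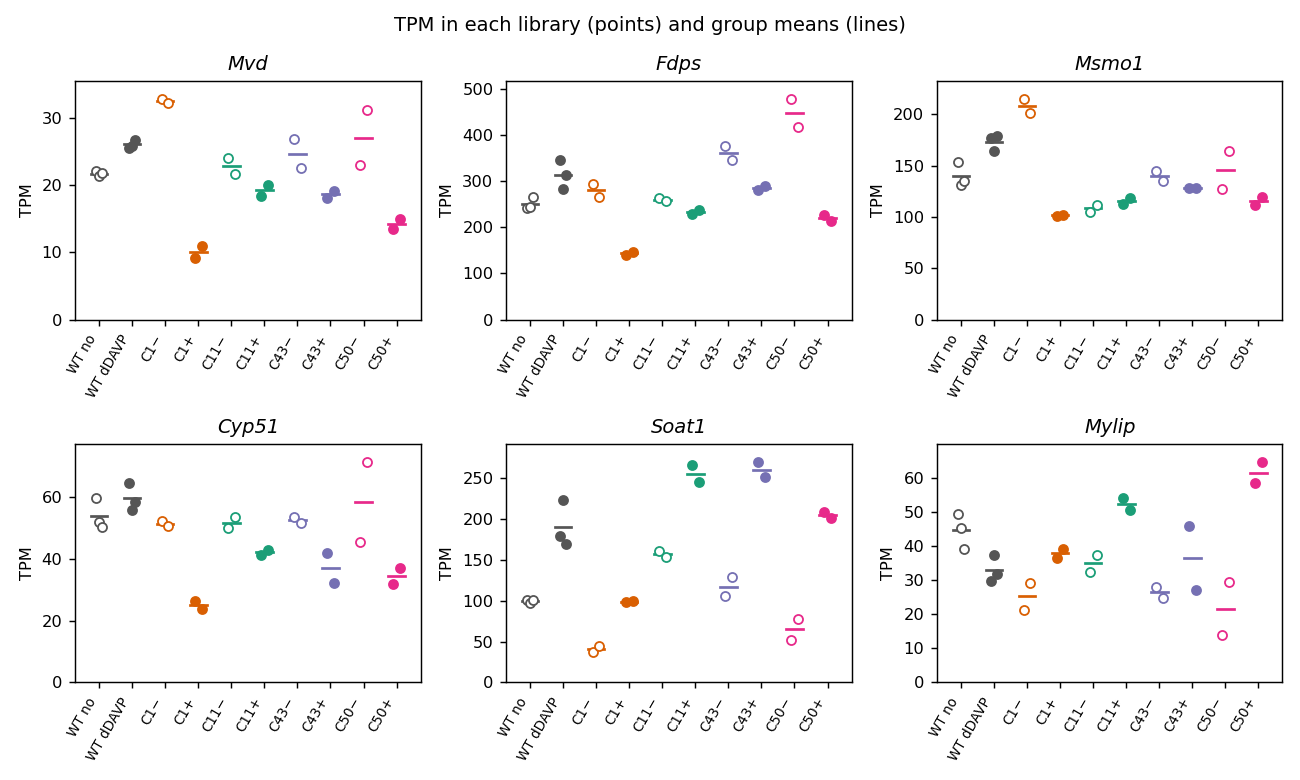
TPM of 6 genes in each library (points), with group means as lines, for WT cells without and with dDAVP and for the GFP-negative (open, minus) and GFP-positive (filled, plus) fractions of each clone; every axis starts at 0. Mvd, Fdps and Cyp51 are lower in the GFP-positive fraction of every clone, Msmo1 drops in C1 from above 200 TPM to about 101 TPM but not in C11, and Soat1 is higher in every GFP-positive fraction and with dDAVP.

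Mylip rose by 0.78 (SE 0.18, limma adjusted p = 0.0038) although its groups overlapped in C43. It was at 28.1 and 24.8 TPM in GFP-negative and 45.9 and 27.0 TPM in GFP-positive libraries of that clone. The rise was largest in C50, from 13.9 and 29.4 TPM to 58.4 and 64.6 TPM. In WT cells its difference with dDAVP had the opposite sign, as given above. Stard4 rose by 0.30 (SE 0.11, limma adjusted p = 0.046), a call lost in 20 of 33 alternative settings; that of Msmo1 was lost in 22 of 33 and that of Ebp in 5.

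No regulator was called with all libraries. None of Srebf1, Srebf2, Scap, Insig1 and Insig2 passed over the 4 clones (limma, 0 at an unadjusted p under 0.05) or within any of them (1 in C50 and none in the other clones at that p). Their differences over the 4 clones were 0.11, -0.02, -0.23, -0.06 and 0.03. Scap, the SREBP escort protein, was lower in GFP-positive cells without overlap in C1, C11 and C43, at 0.78, 0.78 and 0.67 of the GFP-negative mean, and overlapped in C50. Without GFP-negative replicate 1 of C50 Scap was called lower over the 4 clones (-0.41, limma adjusted p = 0.0046) and Srebf2 within C1 (-0.43, limma adjusted p = 0.0499). Srebf2 was at 122 and 130 TPM in GFP-negative and 87.3 and 98.8 TPM in GFP-positive libraries of C1, and at 103 and 119 TPM against 123 and 125 TPM in C11. The fractions were separated in both clones and in opposite directions, and the test for a difference between clones did not pass (limma F-test, adjusted p = 0.59). These are transcript levels, and SREBP cleavage was not measured.

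**Figure D3:**
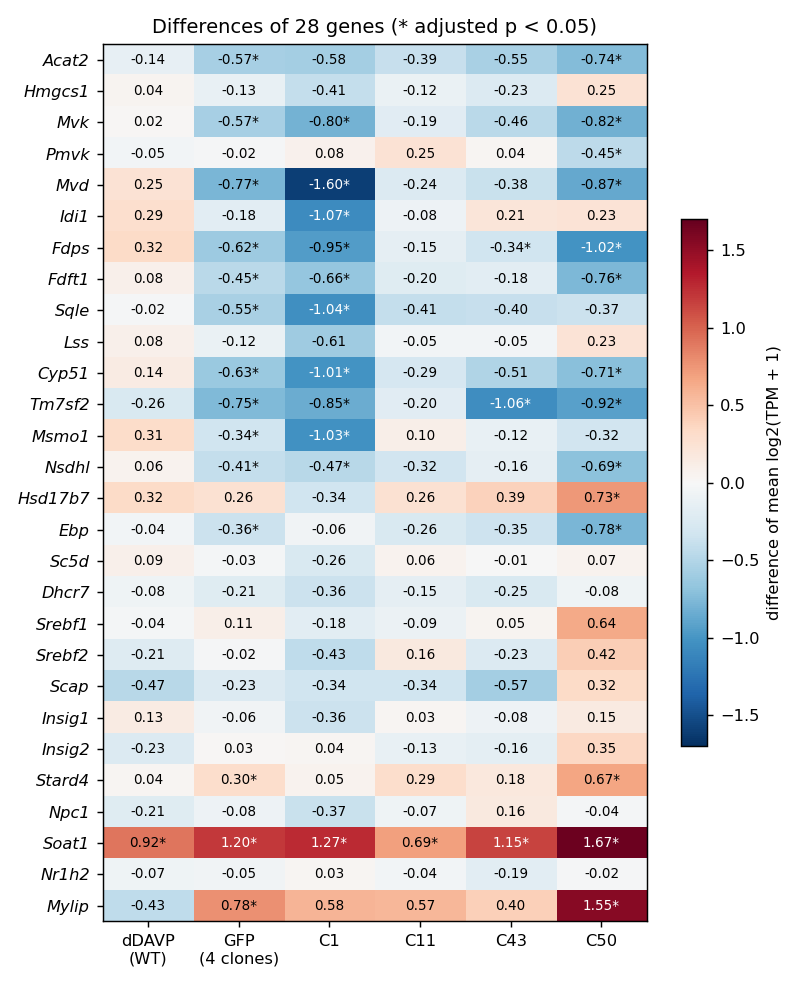
Differences of mean log2(TPM + 1) for the 28 tested genes: dDAVP against no dDAVP in WT cells, GFP-positive against GFP-negative over the 4 clones, and the same within each clone; an asterisk marks an adjusted p under 0.05 (limma). Soat1 carries an asterisk in all 6 columns, the synthesis enzymes are mostly negative in the GFP columns and strongest in C1 and C50, and the 5 regulators carry none.

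Without GFP-negative replicate 1 of C50 the GFP comparison over 4 clones called 16 members in place of 14, against 46.0% of all genes. Stard4 was no longer called (0.23, limma adjusted p = 0.052), and Hmgcs1 (-0.28), Dhcr7 (-0.31) and Scap were added as lower. Soat1 rose by 1.10 and Mvd fell by 0.80 in that fit. When the clone libraries were split by the number of genes detected, 1 member was called in those with fewer, Soat1, against 1.96% of all genes. In those with more, 12 members were called, against 29.9% of all genes. With clone means as the replicates 9 members were called, against 19.6% of all genes.

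The same comparison was made within each clone. In C1 the 18 enzymes had a median difference of -0.64 and 10 of them fell, while in C11 the median was -0.17 and none passed (limma, 1 at an unadjusted p under 0.05). In C43 the median was -0.24 and 2 fell, Fdps by 0.34 and Tm7sf2 by 1.06. In C50 the median was -0.57, 10 fell and 1, Hsd17b7, rose by 0.73. Without GFP-negative replicate 1 of C50 its median was -0.69, and the enzymes that fell numbered 12 for C1, 3 for C11, 7 for C43 and 11 for C50. Counting all members, 11 passed in C1 (7.22% of all genes passed, 4.91% lower and 2.31% higher), 1 in C11 (7.94%), 3 in C43 (16.3%) and 14 in C50 (26.6%, of which 13.8% lower and 12.8% higher). Without that library 14, 4, 8 and 13 members passed in the same order of clones, against 15.9%, 17.7%, 29.6% and 23.7% of all genes. Of all genes called, 32.0% were higher in C1, 28.1% in C11 and 26.3% in C43, against 47.6%, 48.5% and 50.4% with median-ratio scaling.

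Of the 18 enzymes 3, Mvd, Fdps and Msmo1, passed the test of a difference between the 4 clones' GFP differences (limma F-test, adjusted p = 0.048, 0.015 and 0.024), where 0.869% of all genes passed. Mvd fell in C1 from 32.7 and 32.1 TPM to 9.23 and 10.9 TPM, a ratio of 0.31. In C11 it was at 24.0 and 21.7 TPM against 18.4 and 20.1 TPM, a ratio of 0.84. The fractions were separated in both clones, and the GFP difference of C1 minus that of C11 was -1.36 (SE 0.23, limma adjusted p = 0.043). Msmo1 fell in C1 from 215 and 202 TPM to 101 and 102 TPM, while C11 had 105 and 111 TPM in GFP-negative and 113 and 119 TPM in GFP-positive libraries. Its fractions were therefore separated in opposite directions, with a difference of -1.12 between the clones (SE 0.16, limma adjusted p = 0.019). Fdps fell in C1 from 293 and 266 TPM to 140 and 147 TPM, and had 263 and 256 TPM against 229 and 238 TPM in C11, a difference of -0.80 between the clones (SE 0.13, limma adjusted p = 0.037). These 3 were the members called for C1 against C11, where 0.259% of all genes were. Neither test called any of them without the mean-variance trend or with the replicate block. Without GFP-negative replicate 1 of C50, Idi1 and Fdft1 were added to the difference between the 4 clones (5 members, against 2.49% of all genes) and Idi1 to that of C1 against C11 (4 members, against 0.981%).

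Other enzymes fell in C1 without passing that test of C1 against C11 when all libraries were used. Idi1, the isopentenyl diphosphate isomerase, fell by 1.07, from 13.3 and 13.9 TPM to 5.90 and 5.94 TPM (limma adjusted p = 0.0039). Its C11 libraries had 9.22 and 11.1 TPM against 9.71 and 9.32 TPM, overlapping, and the difference between the clones was -0.99 (SE 0.25, limma adjusted p = 0.24, and 0.038 without GFP-negative replicate 1 of C50). Sqle fell in C1 by 1.04, from 73.3 and 75.9 TPM to 35.7 and 35.8 TPM, and Cyp51 by 1.01, from 52.2 and 50.8 TPM to 26.5 and 23.7 TPM. Tm7sf2, Mvk, Fdft1 and Nsdhl fell in C1 by 0.85, 0.80, 0.66 and 0.47. Summed over the 30 genes, the module was at 1805 to 1836 TPM in GFP-negative and 1332 to 1371 TPM in GFP-positive C1 libraries. In C11 the sum was at 1672 to 1716 against 1716 to 1762 TPM. It includes Soat1, which rose in both clones (162 and 154 against 266 and 246 TPM in C11). The sum therefore does not give the direction of the enzymes.

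Of the 10 enzymes that fell in C50, Fdps fell by 1.02 (SE 0.093, limma adjusted p = 2.67e-05), from 476 and 417 TPM to 226 and 213 TPM. Tm7sf2 (-0.92), Mvd (-0.87), Mvk (-0.82), Ebp (-0.78), Fdft1 (-0.76), Acat2 (-0.74), Cyp51 (-0.71), Nsdhl (-0.69) and Pmvk (-0.45) also fell. Ebp, Acat2 and Pmvk were not called in C1 (-0.06, -0.58 and 0.08), and Idi1, Sqle and Msmo1 were not called in C50 (0.23, -0.37 and -0.32); of these, Msmo1 passed the test of a difference between clones. Without GFP-negative replicate 1 of C50 Idi1 passed it too (limma F-test, adjusted p = 0.017), and Acat2 was called in C1 (limma adjusted p = 0.0043). Within C50 the same omission left 13 members called, with Msmo1 and Sqle added as lower and Pmvk, Hsd17b7 and Stard4 no longer called. Fdps then fell by 0.92, less than Acat2 (-1.10), Mvd (-1.08), Cyp51 (-1.03) and Mvk (-0.94). Mylip was then higher by 1.04 in place of 1.55.

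The clone contrasts rest on few libraries. When 1 was left out, the share of all genes called moved with the count of members. Leaving out 1 library at a time, the members called in C1 ranged from 5 (without GFP-negative replicate 1) to 14, and those in C11 from 0 (without any 1 of its own libraries) to 4 (without either C50 GFP-negative library, when Acat2, Nsdhl and Sqle were called lower beside Soat1). For the difference between clones the count was highest without replicate 2 of the C50 GFP-negative fraction, where far more of all genes were called too. Replicate 1, which stood apart, was then the only library of that fraction.

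Proliferation genes were also lower in GFP-positive cells. Of 10 such genes 9 fell over the 4 clones (90.0%, against 35.3% of all genes), with a median of -1.13. In C1 1 of the 10 fell (median -0.24), and their summed level was 1921 to 1957 TPM in GFP-negative and 1753 to 1804 TPM in GFP-positive libraries. In C11 8 of 10 fell (median -1.05), with 1708 to 1835 against 1071 to 1121 TPM. In C43 and C50 9 of 10 fell (medians -1.47 and -1.56). With GFP-negative replicate 1 of C50 left out, 2 of 10 fell in C1 and 9 in C11. For C1 minus C11 the 10 genes had a median difference of 0.65, positive in all 10, and none passed on its own (limma, 8 at an unadjusted p under 0.05). Their part in the enzyme differences was not tested.

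**Figure D4:**
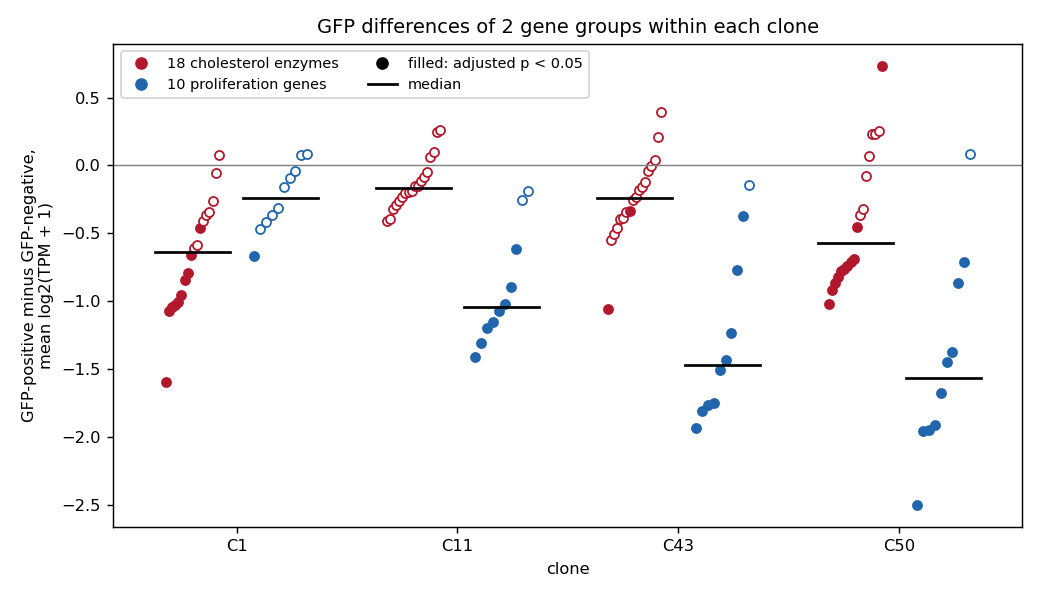
GFP-positive minus GFP-negative differences of mean log2(TPM + 1) within each clone for the 18 enzymes of cholesterol synthesis (red) and 10 proliferation genes (blue), one point per gene, filled where the adjusted p was under 0.05 (limma), with the median as a black line. From C1 through C11 and C43 to C50 the enzyme medians are -0.64, -0.17, -0.24 and -0.57 (-0.69 in C50 without its GFP-negative replicate 1), and the proliferation medians are -0.24, -1.05, -1.47 and -1.56.

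Clone means over both fractions were compared next. Of 28 members 9 (32.1%) passed the test of clone means (limma F-test), where 31.6% of all genes did: Idi1, Fdps, Fdft1, Tm7sf2, Msmo1, Ebp, Scap, Stard4 and Soat1. Between C1 and C11 6 (21.4%) passed, against 21.8% of all genes. Soat1 was lower in C1 by 1.65 (SE 0.12, limma adjusted p = 3.83e-06), and Stard4 and Fdps were lower by 0.44 and 0.29. Tm7sf2 was higher in C1 by 0.55, Fdft1 by 0.39 and Msmo1 by 0.37. Some of these depended on the fraction: by the levels given above, Msmo1 was higher in C1 than in C11 in GFP-negative but lower in GFP-positive cells, and Fdps was lower in C1 in GFP-positive but not in GFP-negative cells. C11 and C43 differed in 1 member, Fdps (background 4.72%), and C43 and C50 in 1, Soat1 (8.58%). The other 3 pairs differed in 7 members for C1 and C43 (25.7%), 6 for C1 and C50 (24.1%) and 4 for C11 and C50 (8.69%). These counts rest on 1 library. Without GFP-negative replicate 1 of C50, 17 members (60.7%) passed the test of clone means, against 47.2% of all genes, and 12 (42.9%) differed between C1 and C11, against 34.1%. C1 then differed from C43 and from C50 in 13 members each (against 38.9% and 28.9%), C11 from C50 in 8 (10.6%), C11 from C43 in 4 (15.2%) and C43 from C50 in 4 (15.6%).

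Genes around the module were read from 4 further lists, beside a background of 35.3% of all genes called with GFP and 8.88% with dDAVP. In sterol handling, 18 of 24 genes were tested, and 4 rose and 7 fell with GFP (61.1%), and 1 passed with dDAVP (5.56%). Nceh1, an enzyme that hydrolyses cholesteryl esters and so acts opposite to Soat1, rose by 0.77 (limma adjusted p = 1.79e-05) and was that 1 gene with dDAVP (0.74, limma adjusted p = 0.0025). Its group means were 82.1 TPM without and 138 TPM with dDAVP, and 71.6 TPM in GFP-negative and 118 TPM in GFP-positive C1 cells. The LXR target Arl4c fell by 1.78 with GFP, the lipoprotein receptor Lrp8 by 1.71, the lipid carrier apolipoprotein E (Apoe), another LXR target, by 0.91 (limma adjusted p = 6.80e-05) and the sterol-regulated membrane protein Tmem97 by 0.85. Arl4c was at 1.51 to 2.74 TPM in the 4 GFP-positive and 8.47 to 11.9 TPM in the 4 GFP-negative group means, and Apoe at 1.36 to 1.92 and 3.26 to 5.23 TPM, while Mylip, also an LXR target, rose.

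In the list of fatty acid synthesis and SREBP-1 targets 18 of 20 genes were tested, and 5 rose and 4 fell with GFP (50.0%), and 22.2% passed with dDAVP. The elongase Elovl6 rose by 0.81 and the desaturase Fads2 by 0.65, whereas the elongase Elovl5 fell by 0.61 and fatty acid synthase, Fasn, by 0.54. With dDAVP Me1 (malic enzyme), Fads2 and Fads1 rose by 0.57, 0.56 and 0.43 and Elovl5 fell by 0.40. Of 15 genes that process SREBP or degrade sterol enzymes 2 fell with GFP (13.3%), Spring1 by 0.36 and Ube2g2 by 0.25, and 1 fell with dDAVP (6.67%), Rnf145 by 0.43. Of 16 tested genes of the isoprenoid branches and electron donors 4 rose and 3 fell with GFP (43.8%), among them the electron donors Cyb5b (0.52) and Cyb5r3 (0.45) as rises and Pdss1 (-0.41), of ubiquinone synthesis, as a fall, and none passed with dDAVP (limma, 4 at an unadjusted p under 0.05).

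The list counts were also made without GFP-negative replicate 1 of C50, with genes named after their values were seen. In that fit, where 46.0% of all genes were called with GFP, the list of SREBP processing and sterol degradation had 9 of 15 genes lower (60.0%) in place of 2. The 7 added included the SREBP proteases Mbtps1 (-0.25) and Mbtps2 (-0.36). Fatty acid synthesis and SREBP-1 targets then had 5 higher and 6 lower (61.1%), with Acly (-0.65) and Scd1 (-0.45) added. Sterol handling again had 4 higher and 7 lower, and the isoprenoid branches and electron donors had 5 higher and 4 lower (56.3%). Fads2 rose by 0.45, Cyb5b by 0.41 and Cyb5r3 by 0.34 in that fit.

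Some members could carry reads of another gene, since the library preparation does not mark strand. In the RefSeq annotation Fdft1 overlaps Ctsb, Tm7sf2 overlaps Vps51, Srebf1 overlaps Rai1 and Npc1 overlaps Rmc1, all protein-coding. Acat2 overlaps a pseudogene, and Mvd, Lss and Insig1 overlap long non-coding RNAs. Acat2 and Idi1 have the related genes Acat3 and Idi2, which did not exceed 0.42 and 0.32 TPM. Values of these members are uncertain to that extent.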

How the data were processed

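RNA-seq of 22 libraries (SMART-Seq HT cDNA, Nextera XT, paired-end, per the labels' protocols) was deposited by the authors as TPM per gene, and STAR and RSEM are named, per the submitters' processing notes. Genome build and tool versions were not given in the sources used here. The authors also deposited group means of TPM (equal to the mean of the group's libraries in 100% of lines, within 0.0051 TPM), ratios of these means and the highest signal per line, which were not used further. The 980 lines that share one of 79 symbols were summed (55415 lines to 54514 entries). No pair of libraries held identical values (0 pairs).

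Group values are mean TPM ± SD. Differences are of mean log2(TPM + 1), a pseudocount of 1, tested with limma 3.58.1 in R 4.3.3 (mean-variance trend, two-sided, mean of at least 1 TPM, Benjamini-Hochberg over all genes tested, called at 0.05). Models were fitted to the 6 WT libraries, to the 16 clone libraries with clone as a covariate, and to the 16 libraries with a mean per clone and fraction, whose contrasts and F-tests gave the clone results. The code was tested on simulated data. TPM keep no depth, so no counting interval was computed. dDAVP dose and duration were not analysed here, since the labels give several without naming the library.

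Every member could be named. Full statistics were given mainly to called members with a difference of at least 0.5, and at most 4 called genes of each further list were named by size; Nceh1 with GFP was named beside its dDAVP value after values were seen. The members, lists, motifs and tests were chosen with earlier results of these data known. Alternatives were a pseudocount of 0.1, quantile normalization, median-ratio scaling, filters at 5 TPM or at any TPM above 0, no trend, robust moderation, a replicate block, the number of genes detected as a covariate, subsets by that number, clone means, and leaving out each library or clone. A correction for transcript length and GC content (GENCODE M21) was added after seeing the data.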

Additional observations from a re-analysis of the deposited data

Results flagged for a closer look

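The GFP differences of 3 members differed between the 4 clones by a test of the difference itself (limma F-test over the 16 clone libraries). The adjusted p was 0.015 for Fdps, 0.024 for Msmo1 and 0.048 for Mvd. Fdps was lower in the GFP-positive fraction by 0.95 (C1), 0.15 (C11), 0.34 (C43) and 1.02 (C50) on the log2(TPM + 1) scale. Mvd was lower by 1.60, 0.24, 0.38 and 0.87 in the same order. Msmo1 was lower by 1.03 in C1, 0.12 in C43 and 0.32 in C50, and higher by 0.10 in C11. None of the 3 was called without the mean-variance trend or with the replicate block (0 members each), and leaving out 1 library other than the C50 GFP-negative ones left at most 2 members called.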

How the results depend on the processing

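None of 15 called member differences (14 with GFP, 1 with dDAVP) reversed under the alternatives. Without C50 GFP-negative replicate 1 differences that were not called changed sign, with GFP for Pmvk (-0.02 to 0.05) and Insig2 (0.03 to -0.03) and within C50 for 8 members, such as Srebf2 (0.42 to -0.27). Soat1 kept its GFP call in 33 of 33 alternatives (adjusted p 1.40e-08 to 0.035) and its dDAVP call in 16 of 17; the exception was the subset of libraries with more genes detected (0.96, adjusted p = 0.076), where 0 members were called with dDAVP. Counts of called members that moved by over 1.5 times were as follows, with the percentage of all genes called under the same setting in brackets. For dDAVP (1 member) they were 3 with a filter at 5 TPM (14.3%), 3 with median-ratio scaling (6.67%) and 2 with quantile normalization (6.003%). They were 5 with genes detected as a covariate (19.96%) and 6 with the length and GC correction (8.74%). For GFP (14) they were 9 with clone means (19.6%) and 1 in the libraries with fewer genes detected (1.96%). For C11 (1) they were 0 with any TPM above 0 (1.51%), 2 with quantile normalization (9.03%) and 2 with the length and GC correction (12.1%). For the difference of GFP differences between clones (3) they were 1 with any TPM above 0 (0.193%) and 5 with quantile normalization (1.78%). They were 0 with no trend (0.610%) and 6 with the length and GC correction (2.17%). For C1 against C11 in the same respect (3) they were 1 with any TPM above 0 (0.0645%), 0 with no trend (0.175%) and 5 with the length and GC correction (0.561%). For clone means (9) they were 14 with quantile normalization (38.3%) and 14 with the length and GC correction (41.4%). For C1 against C11 in level (6) the count was 10 with quantile normalization (26.3%). The cause was not tested.

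The numbers were not taken as pairs, since C43 alone was over 0.1: deviations of same-numbered libraries from group means correlated at -0.21, -0.03 and -0.10 for the WT numbers and at 0.05 (C1), 0.01 (C11), 0.21 (C43) and 0.09 (C50). With the replicate block the counts were 1 for dDAVP (0.904% of all genes), 12 for GFP (32.5%), 8 for C1 (4.69%) and 0 for C11 (4.30%). They were 2 for C43 (12.1%) and 14 for C50 (23.6%). For the difference between clones' GFP differences they were 0 (0.0839%), and for that of C1 against C11 0 (0.0458%). Differences in level between clones could not be fitted with the block.

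Leaving out 1 library at a time gave 1 to 4 members for dDAVP (4 without WT dDAVP replicate 2), 12 to 16 for GFP, 5 to 14 for C1, 0 to 4 for C11, 2 to 8 for C43 (8 without either C50 GFP-negative library), 9 to 20 for C50 (9 and 10 without GFP-positive replicates 1 and 2, 20 without GFP-negative replicate 2), 0 to 16 for the difference between clones' GFP differences, 0 to 4 for that of C1 against C11, 6 to 19 for clone means and 5 to 12 for C1 against C11 in level. Of all genes, 15.2% were called for dDAVP without WT dDAVP replicate 2, and 31.8% to 46.0% for GFP. In the clone contrasts the share of all genes called moved with these counts too. It was highest for C50 and for clone means without C50 GFP-negative replicate 2. A fraction left with 1 library is assumed to vary like the others. With 2 libraries per fraction and no depth in TPM, small differences of low genes such as Npc1 cannot be resolved.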
